A study of Mus musculus with 4 samples.

Results

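The triggering receptors expressed on myeloid cells (TREM), the adaptors through which they signal and the kinases, scaffolds and inhibitors downstream were followed in alveolar macrophages (AM), the resident phagocytes of the airspace, with and without TREM-2. The genes were taken from a list of 40 symbols. A gene was included when a row of the expression table carried exactly its symbol in the platform's annotation, which held for 39 of the 40, out of 19946 genes measured in all. The kinase gene *Lyn* had no such row and was not analysed here, and each of the 39 genes was read by 1 probe set.

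AM were obtained by bronchoalveolar lavage from untreated *Trem-2*-/- mice, whose mutation the labels give as backcrossed 10 times to C57/Blk6, and from WT mice labelled C57/Blk6, all aged 8 to 10 weeks. Each genotype was measured on 2 Affymetrix gene expression arrays, with RNA pooled over mice. The WT mice were purchased whereas the *Trem-2*-/- line was backcrossed, so that genotype and mouse line cannot be told apart. The paper states that mice of both lines were bred in the same facility and matched for age and sex. Nothing states how many mice made up a pool or whether pools shared animals, and the p-values here therefore reflect array-to-array spread, which may be technical.

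TREM-2 has almost no intracellular tail and signals through DAP12, encoded by *Tyrobp*, whose immunoreceptor tyrosine-based activation motif (ITAM) is phosphorylated by Src family kinases. The phosphorylated ITAM recruits the kinase Syk, and Syk acts on scaffold proteins that gather phospholipase C gamma 2, Vav exchange factors, Tec family kinases and phosphoinositide 3-kinase (PI3K). Phosphatases, Dok adaptors and Cbl ubiquitin ligases restrain the cascade. In macrophages the same machinery serves Fc receptors and many C-type lectins, and DAP12 signalling has been tied to both dampening and amplification of Toll-like receptor responses.

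All values are log2 expression values after robust multi-array averaging (RMA), and a log2 fold change is *Trem-2*-/- minus WT, so that 1 unit is a doubling. Genes were compared with limma, and a gene passed when its Benjamini-Hochberg adjusted p over all 19946 genes lay below 0.05. Array medians ran from 5.84 to 5.86, and arrays correlated at r = 0.992 to 0.995 over probe sets, which are not independent replicates. None of 13 measured AM markers, *Marco*, *Siglecf* and *Itgax* among them, fell below the lower quartile of any array. Of these markers 12 lay above the median of every array, against 54.1% of all genes. So did 11 of 15 measured markers of interstitial or monocyte-derived macrophages, so these levels cannot tell such cells apart. *Trem2*, *Tyrobp* and *Syk* also lay above the median of every array. Of the AM markers 1 was higher and none lower in *Trem-2*-/- AM. At an unadjusted p below 0.05, 3 AM markers were higher and 2 lower, against 4.64% and 6.9% of all genes. The higher were *Car4* (log2 fold change 0.90), *Il18* (0.46) and *Marco* (0.18), and the lower *Siglecf* (−0.21) and *Krt79* (−0.35). Of 15 measured genes that mark interstitial or monocyte-derived macrophages 9 were higher and none lower. The 9 include *C1qa*, *C1qb* and *C1qc*, with log2 fold changes of 1.19, 1.80 and 1.81. The paper reports more C1q protein within *Trem-2*-/- AM by flow cytometry, which is a different measure from the RNA signal of these arrays. The part of other cells in this count was not tested.

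Of the 39 genes, 1 was higher and 1 was lower in *Trem-2*-/- AM, and both were TREM receptors. *Treml2* was the higher and *Trem2* the lower gene, while 37 genes did not pass, among them every measured adaptor, kinase, exchange factor, scaffold and inhibitor. Over all genes, 0.431% passed as higher and 0.135% as lower. At an unadjusted p below 0.05, 5 of the 39 genes were higher, against 4.64% of all genes, and 2 were lower, against 6.9%. The median log2 fold change was 0.05 over the 39 genes and −0.02 over all genes, and the median size of the change, regardless of sign, was 0.08 for both.

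*Trem2*, the targeted gene, had log2 values of 7.64 and 7.45 on the *Trem-2*-/- arrays, against 9.58 and 9.74 on the WT arrays. Both *Trem-2*-/- arrays lay below both WT arrays, by far more than the arrays of either genotype differed. Its log2 fold change, −2.11 (95% interval −2.36 to −1.87, adjusted p = 0.0009 from limma), corresponds to 4.33-fold more signal in WT AM. The remaining signal in *Trem-2*-/- AM was above the median of the arrays. The sources used here do not give the exons read by the probe set or the part of the gene that was removed, and a bulk array cannot tell fewer cells that express a gene from less RNA per cell.

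*Treml2*, which encodes TREM-like transcript 2, a receptor found on macrophages, neutrophils and B cells, moved the other way. Its log2 values were 6.75 and 6.79 on the *Trem-2*-/- arrays, against 5.61 and 5.55 on the WT arrays. The genotypes were clearly separated, with SDs of 0.03 in *Trem-2*-/- AM and 0.04 in WT AM (n = 2 arrays each). The difference of 1.19 log2 units (95% interval 1.01 to 1.37, adjusted p = 0.0026 by limma) corresponded to a 2.28-fold higher signal in *Trem-2*-/- AM. *Treml2* kept its call when each array was dropped in turn (adjusted p between 0.021 and 0.037 in limma). It lost it when all 35557 rows of the table, unnamed probe sets included, entered the adjustment (adjusted p = 0.071 from limma), where 21 rows were higher and 2 lower in all.

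*Treml1*, encoding TREM-like transcript 1, a platelet receptor with an inhibitory motif, stood between these results. It had log2 values of 7.54 and 7.56 on the *Trem-2*-/- arrays, against 6.82 and 7.09 on the WT arrays. The arrays did not overlap, but the WT arrays were 0.27 apart, the widest gap between WT arrays of any of the 39 genes. The log2 fold change was 0.60 (95% interval 0.35 to 0.85) and did not pass (adjusted p = 0.10 from limma). *Treml1* was called as higher by significance analysis of microarrays (SAM), the method of the study, which called 0.857% of all genes as higher and 0.0953% as lower. It was also called with an intensity trend and robust variance (adjusted p = 0.0023 from limma), a setting that called 1.9% as higher and 1.45% as lower, and among genes with a mean log2 value of at least 6 (adjusted p = 0.017 from limma).

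The other TREM genes did not pass. *Trem1*, an amplifier of inflammatory responses that pairs with DAP12, had log2 values of 8.83 and 8.78 on the *Trem-2*-/- arrays, against 8.63 and 8.46 on the WT arrays, and *Trem3*, a DAP12-coupled receptor of mice, had 6.75 and 6.81 against 7.02 and 7.15. Both genes were separated between genotypes, in opposite directions, with log2 fold changes of 0.26 (95% interval 0.05 to 0.47) for *Trem1* and −0.31 (95% interval −0.50 to −0.11) for *Trem3*. Their adjusted p was 0.35 and 0.25 from limma. *Treml4*, a DAP12-coupled receptor that binds dying cells, had 11.20 and 11.08 in *Trem-2*-/- AM and 11.13 and 11.11 on the WT arrays, so that the genotypes overlapped (log2 fold change 0.02, 95% interval −0.17 to 0.21, adjusted p = 0.95 from limma).

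**Figure D1:**
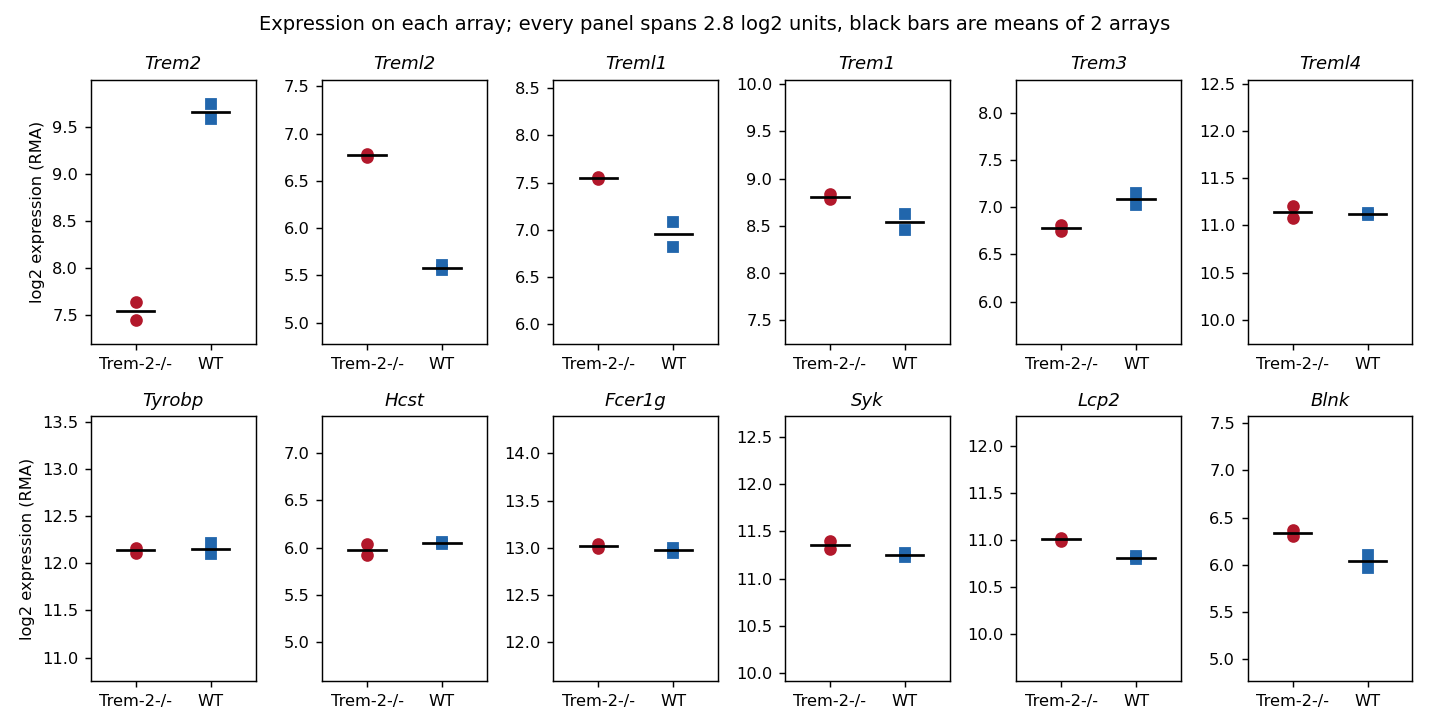
Log2 expression (RMA) on each array of the 6 TREM receptor genes, the 3 adaptor genes, *Syk*, *Lcp2* and *Blnk*, with *Trem-2*-/- AM as red circles and WT AM as blue squares, 2 arrays each, and black bars for the means. All panels span the same range, and the separation of *Trem2* (7.54 against 9.66) and *Treml2* (6.77 against 5.58) stands beside overlapping values for *Treml4*, *Tyrobp* and *Fcer1g*.

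The TREM genes lie side by side on chromosome 17, and the measured genes around *Trem2* were read in the order of the RefSeq annotation. *Treml2* lay 2 measured genes before *Trem2* and *Treml1* directly after it. Of the 10 measured genes on each side of *Trem2*, 1 passed, *Treml2*, and none was lower, against 0.567% of all genes in either direction. Over the 936 measured genes of chromosome 17, *Trem2* and *Treml2* included, 11 were higher and 7 lower. Of all 19946 genes, 86 were higher (0.431%) and 27 lower (0.135%). What lies behind the calls on this chromosome was not tested. The 15 neighbours that are no TREM genes of the list had log2 fold changes from −0.39 (*Apobec2*) to 0.43 (*A530064D06Rik*), and none passed, the lowest adjusted p being 0.16 from limma. Both names were chosen after their values were seen.

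**Figure D2:**
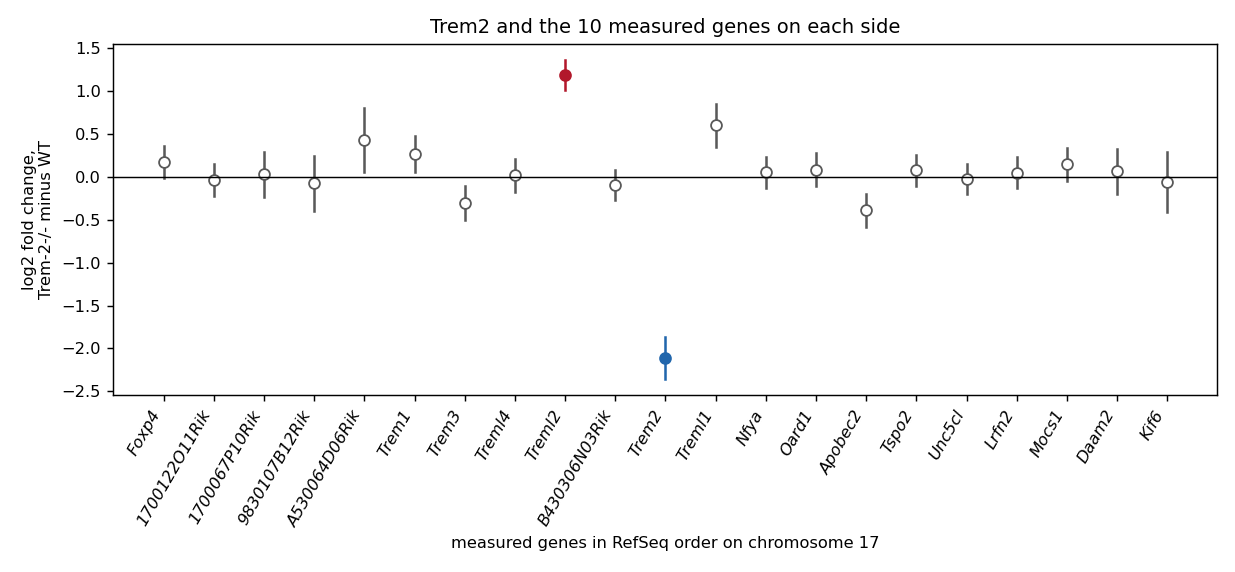
Difference in log2 expression between *Trem-2*-/- and WT AM for *Trem2* and the 10 measured genes on each side of it, in RefSeq order on chromosome 17. Circles are estimates from limma with 2 arrays per genotype and bars are 95% intervals. The filled red circle is *Treml2* at 1.19, the filled blue circle is *Trem2* at −2.11, and open circles did not pass.

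The 250 bases before the annotated start of *Trem2* and of its neighbour *Treml1* are shown because these adjacent genes differed between genotypes in opposite directions without overlap of the arrays. The sequences are from RefSeq (GRCm38.p6, forward strand), at chr17:48346151-48346400 for *Trem2* and chr17:48359666-48359915 for *Treml1*. Capitals mark GAGGAA on either strand (TTCCTC when read forward). It is a longer form of GGAA, the core recognized by ETS factors such as the myeloid regulator PU.1. Copies of GGAA alone, which both windows also hold, were neither marked nor counted.
Trem2: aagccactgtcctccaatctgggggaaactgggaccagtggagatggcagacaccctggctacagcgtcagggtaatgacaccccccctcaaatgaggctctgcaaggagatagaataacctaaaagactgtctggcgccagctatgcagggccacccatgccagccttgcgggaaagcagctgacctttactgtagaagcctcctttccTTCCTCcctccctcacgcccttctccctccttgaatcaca
Treml1: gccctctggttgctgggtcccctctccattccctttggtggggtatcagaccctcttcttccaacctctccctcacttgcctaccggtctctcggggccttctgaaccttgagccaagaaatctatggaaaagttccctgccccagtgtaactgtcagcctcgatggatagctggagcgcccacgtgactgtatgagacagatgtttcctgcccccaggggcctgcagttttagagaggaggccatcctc

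The *Trem2* window held 1 match to GAGGAA, on the reverse strand, beginning 40 bases before the start. The *Treml1* window held none, the *Trem1* window held 1 on the forward strand and the *Treml4* window held 2 on the reverse strand. Promoters were found for 31 of the 40 genes, and 14 of their 41 windows held the motif, against 23.3% of all 32851 windows of the same length. A match describes these letters and is not a bound site.

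Markers of other cells were read beside these genes. The 15 markers of interstitial or monocyte-derived macrophages summed to log2 values of 13.55 and 13.49 on the *Trem-2*-/- arrays, against 13.00 and 12.99 on the WT arrays. Much of these sums came from *Csf1r* (log2 fold change 0.13), which did not pass, and *Apoe* (1.67), which did. The 11 neutrophil markers summed to 9.99 and 10.02, against 9.81 and 9.76, and 9 of the 11 had positive log2 fold changes (81.8%, against 42.7% of all genes). None passed, while 4 were higher at an unadjusted p below 0.05, against 4.64% of all genes. These were *Csf3r* (log2 fold change 0.64, adjusted p = 0.070 from limma), *Ltf* (0.35), *Mmp9* (0.32) and *Mmp8* (0.21). In the same 4 genes both *Trem-2*-/- arrays lay above both WT arrays, against 17.4% of all genes. *Ly6g*, *Ngp* and *Retnlg* lay under the lower quartile on all arrays. *Cd79a*, *Ms4a1* and *Ebf1*, of the 7 measured B cell markers, lay below that quartile throughout. None of the 7 B cell markers passed, 5 had positive log2 fold changes (71.4%, against 42.7% of all genes), and the median was 0.06. Their sums of 10.30 and 10.23, against 10.39 and 10.38, rested mainly on *Cd22* (10.04 and 9.96 on the *Trem-2*-/- arrays, against 10.15 and 10.17 on the WT arrays), which is also among the receptors with inhibitory motifs. Of 8 platelet markers 4 were measured and none passed. *Gp9*, *Clec1b* and *Itga2b* were lower on both *Trem-2*-/- arrays than on both WT arrays, against 25.4% of all genes. *Ppbp* was higher on both, against 17.4% of all genes, and lay below the lower quartile on all arrays. The platelet marker sums of 9.75 and 9.89, against 9.99 and 9.99, rested mainly on *Clec1b*, also an ITAM-coupled receptor. *Pf4*, a platelet gene that macrophages can also express and that was listed with the interstitial macrophage markers, was higher, at 7.19 and 7.49 on the *Trem-2*-/- arrays, against 5.30 and 5.42 on the WT arrays (log2 fold change 1.98, adjusted p = 0.0020 from limma). Of 10 lung epithelial markers 2 were higher, *Cldn18* (log2 fold change 1.23, adjusted p = 0.0083 from limma) and *Scgb1a1* (log2 fold change 0.91, adjusted p = 0.015 from limma), and none lower. At an unadjusted p below 0.05, 5 of the 10 were higher and 1 lower, against 4.64% and 6.9% of all genes. The 10 epithelial markers summed to 10.17 and 10.21 on the *Trem-2*-/- arrays, against 10.03 and 9.99 on the WT arrays. The part of these cells in the values of *Trem2*, *Treml2* and *Treml1* was not tested.

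The adaptors that couple TREM receptors to the cascade did not pass the test. *Tyrobp* had log2 values of 12.16 and 12.11 on the *Trem-2*-/- arrays, against 12.10 and 12.21 on the WT arrays. The genotypes overlapped (95% interval of the difference −0.21 to 0.18). *Fcer1g*, the ITAM adaptor of Fc receptors and several C-type lectins, had 12.99 and 13.04 against 13.00 and 12.95, again with overlap (95% interval −0.14 to 0.22). *Hcst*, which encodes DAP10, an adaptor that binds PI3K, had 5.92 and 6.04 against 6.04 and 6.06, marginally lower on both *Trem-2*-/- arrays (95% interval −0.26 to 0.12). The adjusted p of the adaptors ran from 0.79 to 0.96 in limma.

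The tyrosine kinases were likewise within 0.16 log2 units of WT. *Syk*, the kinase that docks on phosphorylated ITAMs, had log2 values of 11.40 and 11.32 on the *Trem-2*-/- arrays, against 11.23 and 11.27 on the WT arrays. Both *Trem-2*-/- arrays were above both WT arrays, but the log2 fold change was 0.11 (95% interval −0.08 to 0.29, adjusted p = 0.65 from limma). *Tec*, which activates phospholipase C gamma, was the kinase with the largest difference, at 9.28 and 9.37 against 9.43 and 9.52 (log2 fold change −0.16, 95% interval −0.35 to 0.03). *Btk*, of the same kinase family, had the smallest, at 9.76 and 9.71 against 9.62 and 9.68 (log2 fold change 0.09, adjusted p = 0.71 from limma).

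Among phospholipase C gamma 2 and the PI3K subunits, *Pik3r1*, a regulatory subunit of PI3K, differed most. Its log2 values were 9.74 and 9.80 on the *Trem-2*-/- arrays, against 9.66 and 9.44 on the WT arrays. The arrays did not overlap, yet the WT arrays were as far apart as the group means (log2 fold change 0.22, 95% interval −0.01 to 0.45, adjusted p = 0.46 from limma). *Pik3cd*, the leukocyte catalytic subunit p110 delta, differed least, at 9.13 and 9.11 against 9.10 and 9.09 (95% interval −0.15 to 0.19). Of the exchange factors, *Vav1* was highest relative to WT, at 10.95 and 10.91 against 10.84 and 10.80 (log2 fold change 0.11, adjusted p = 0.64 from limma). *Vav3* overlapped between genotypes, at 8.74 and 8.91 against 8.91 and 8.76 (95% interval −0.24 to 0.22).

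Among the scaffolds *Blnk* had the largest difference, which was also the largest of the 33 measured genes of the list other than TREM receptors. *Blnk*, which encodes the B cell linker protein and joins Syk to phospholipase C gamma 2, had log2 values of 6.31 and 6.37 on the *Trem-2*-/- arrays, against 5.97 and 6.11 on the WT arrays. It was separated but did not pass (log2 fold change 0.30, 95% interval 0.10 to 0.50, adjusted p = 0.27 from limma). Of the 7 B cell markers given above none passed, with 5 log2 fold changes positive and 2 negative. The part of B cells in the value of *Blnk* was not tested. *Lcp2*, encoding the scaffold SLP-76, had 10.99 and 11.02 against 10.83 and 10.79 (log2 fold change 0.19, 95% interval 0.02 to 0.37, adjusted p = 0.39 from limma). *Lcp2* was called as higher under 1 alternative, an intensity trend with robust variance (adjusted p = 0.032 from limma). *Lat2*, the adaptor NTAL, differed least, at 6.64 and 6.66 against 6.58 and 6.66.

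In the CARD9 module, through which Syk reaches NF-kB, *Card9* had log2 values of 9.16 and 8.99 on the *Trem-2*-/- arrays, against 8.95 and 8.85 on the WT arrays. The lowest *Trem-2*-/- array and the highest WT array were almost level, and the log2 fold change was 0.17 (95% interval −0.05 to 0.39, adjusted p = 0.53 from limma). *Bcl10*, its partner, had 9.17 and 9.18 against 9.09 and 9.14 (log2 fold change 0.06, 95% interval −0.11 to 0.23). Of the 7 inhibitors, *Dok2*, an adaptor that recruits RasGAP, was the most different, at 8.05 and 7.90 against 8.13 and 8.06 (log2 fold change −0.12, 95% interval −0.33 to 0.08). *Ptpn6*, the phosphatase SHP-1, was the least different, at 11.92 and 11.86 against 11.91 and 11.91 (95% interval −0.19 to 0.16).

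The remaining 16 genes, the Src family kinase gene *Fgr*, the phospholipase gene *Plcg2* and the lipid phosphatase gene *Inpp5d* among them, had log2 fold changes from −0.12 to 0.14 and an adjusted p of 0.55 to 0.91 in limma. Over the 33 measured genes other than TREM receptors, all 95% intervals lay between −0.35 (*Tec*) and 0.50 (*Blnk*), each interval taken on its own without adjustment. None of the 33 passed, and SAM called none of them. At an unadjusted p below 0.05, 2 of the 33 were higher (*Blnk* and *Lcp2*, 6.06%), against 4.64% of all genes. None of the 39 genes fell below the lower quartile of any array.

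**Figure D3:**
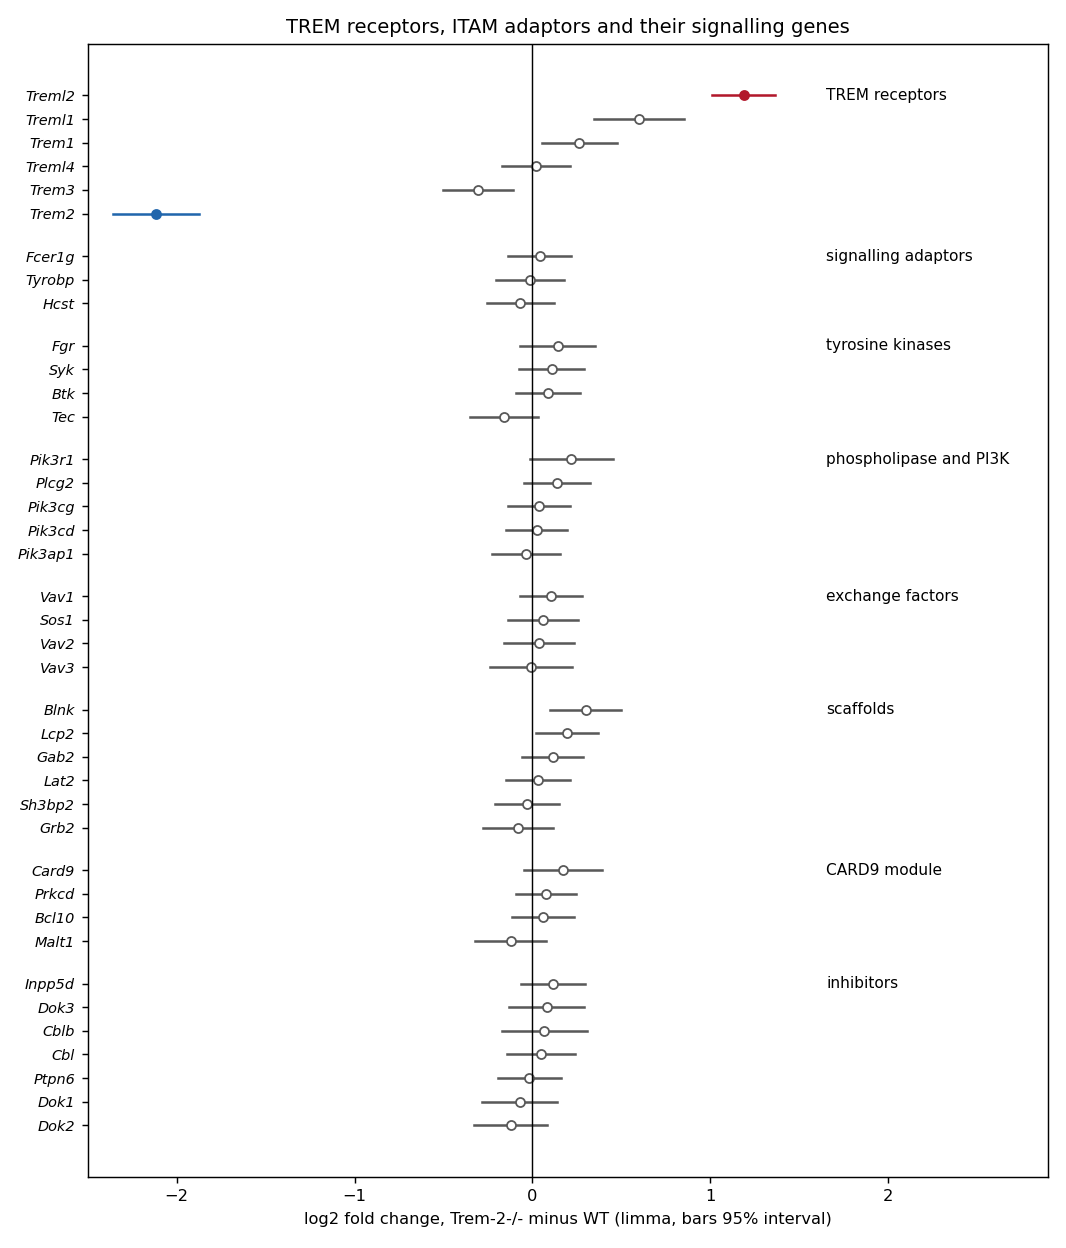
Difference in log2 expression between *Trem-2*-/- and WT AM for the 39 genes by role, from 2 arrays per genotype. Circles are estimates from limma, bars 95% intervals, and filled circles passed at an adjusted p below 0.05. *Treml2* (1.19) and *Trem2* (−2.11) stand away from the genes of the other roles, whose estimates run from −0.16 to 0.30.

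Small differences leaned to one side. The log2 fold change was above 0 in 26 of the 39 genes (66.7%) and below 0 in 13. It was above 0 in 42.7% of all genes and in 47.0% of genes with a mean log2 value of at least 6. In 17 genes (43.6%) both *Trem-2*-/- arrays were above both WT arrays, against 17.4% of all genes, and in 6 (15.4%) both were below, against 25.4%. The arrays were thus separated in 23 of the 39 genes in either direction, against 42.8% of all genes. Among the 10783 genes with a mean log2 value of at least 6, to which all 39 belong (*Treml2* only through its *Trem-2*-/- arrays), these shares were 21.9% and 25.7%. This comparison was chosen after the values were seen and carries no test, since the genes of a pathway are not independent. The median log2 fold change of the 39 genes stayed between 0.02 and 0.07 under the 12 alternatives, lowest without WT replicate 2. Arrays of a genotype differed by a median of 0.06 (*Trem-2*-/-) and 0.07 (WT) over these genes.

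Receptors that feed the same cascade were described from further lists. Of 18 measured ITAM-coupled receptors none passed. At an unadjusted p below 0.05, 5 were higher and none lower, against 4.64% and 6.9% of all genes. In 14 of the 18 receptors (77.8%) the log2 fold change was positive, against 42.7% of all genes, and the median was 0.08. The widest differences were in *Fcgr1*, the high-affinity IgG receptor, with log2 values of 9.35 and 9.55 on the *Trem-2*-/- arrays, against 9.03 and 8.79 on the WT arrays, and in *Fcgr4*, a low-affinity IgG receptor of mice. *Fcgr4* had 10.94 and 10.95 against 10.45 and 10.49 (log2 fold change 0.47, adjusted p = 0.069 from limma), close to the threshold, and *Fcgr1* was at 0.54 (adjusted p = 0.16 from limma). Both were called as higher with the intensity trend and robust variance and among genes with a mean log2 value of at least 6, and SAM called *Fcgr4* but not *Fcgr1*.

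Of 18 measured receptors with inhibitory motifs (ITIM), which recruit SHP-1 or SHIP-1, none passed either. At an unadjusted p below 0.05, 6 were higher and 1 lower, against 4.64% and 6.9% of all genes. In 12 of the 18 receptors (66.7%) the log2 fold change was above 0, against 42.7% of all genes, and the median was 0.08. *Fcgr2b*, the inhibitory IgG receptor, had log2 values of 10.61 and 10.56 on the *Trem-2*-/- arrays, against 10.12 and 10.10 on the WT arrays. It thus differed by about as much as *Fcgr4* (log2 fold change 0.47, adjusted p = 0.070 from limma) and was called as higher by SAM, with the intensity trend and robust variance and among genes with a mean of at least 6. *Pirb*, the paired immunoglobulin-like receptor B, had 11.39 and 11.28 against 11.03 and 11.14 (log2 fold change 0.25, adjusted p = 0.35 from limma), and was called as higher with the intensity trend and robust variance only.

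Among 55 further genes of the pathway 1 was higher and none lower, and the median was 0.02. At an unadjusted p below 0.05 in limma, 4 were higher and 3 lower, against 4.64% and 6.9% of all genes. The 3 lower genes were *Prkcb* (log2 fold change −0.34), *Ubash3b* (−0.33) and *Pik3cb* (−0.31). The gene that passed was *Fyb*, encoding ADAP, an adaptor that binds SLP-76. It had log2 values of 8.65 and 8.89 on the *Trem-2*-/- arrays, against 7.95 and 7.89 on the WT arrays, which differ by 0.85 log2 units (95% interval 0.61 to 1.09, adjusted p = 0.029 by limma). Dropping any 1 of the arrays ended the call of *Fyb* (adjusted p between 0.068 and 0.15 in limma).

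Of 12 measured genes for TREM-2 ligands, partners and shedding, 2 were higher and none lower, and both encode apolipoproteins that bind TREM-2. At an unadjusted p below 0.05 in limma, 2 were higher and 2 lower, against 4.64% and 6.9% of all genes. The lower genes were *Apoa1*, also an apolipoprotein gene (log2 fold change −0.28), and *Lgals3* (−0.22). In all, 4 of the 12 had positive log2 fold changes (33.3%), against 42.7% of all genes. *Apoe* had log2 values of 11.17 and 10.98 on the *Trem-2*-/- arrays, against 9.39 and 9.41 on the WT arrays (log2 fold change 1.67, adjusted p = 0.0015 from limma). *Clu*, encoding clusterin, had 7.95 and 7.91 against 6.59 and 6.93 (log2 fold change 1.17, adjusted p = 0.020 from limma), a call lost without *Trem-2*-/- replicate 1 (adjusted p = 0.13 from limma) or replicate 2 (adjusted p = 0.13 from limma). The secretases and the sheddases ADAM10 and ADAM17 did not pass, and the median of the list was −0.03. *Apoe* also belongs to the interstitial macrophage markers above, 9 of which were higher, the C1q genes among them. The part of interstitial macrophages, or of the epithelial cells whose markers are given above, in the values of *Apoe* and *Clu* was not tested.

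**Figure D4:**
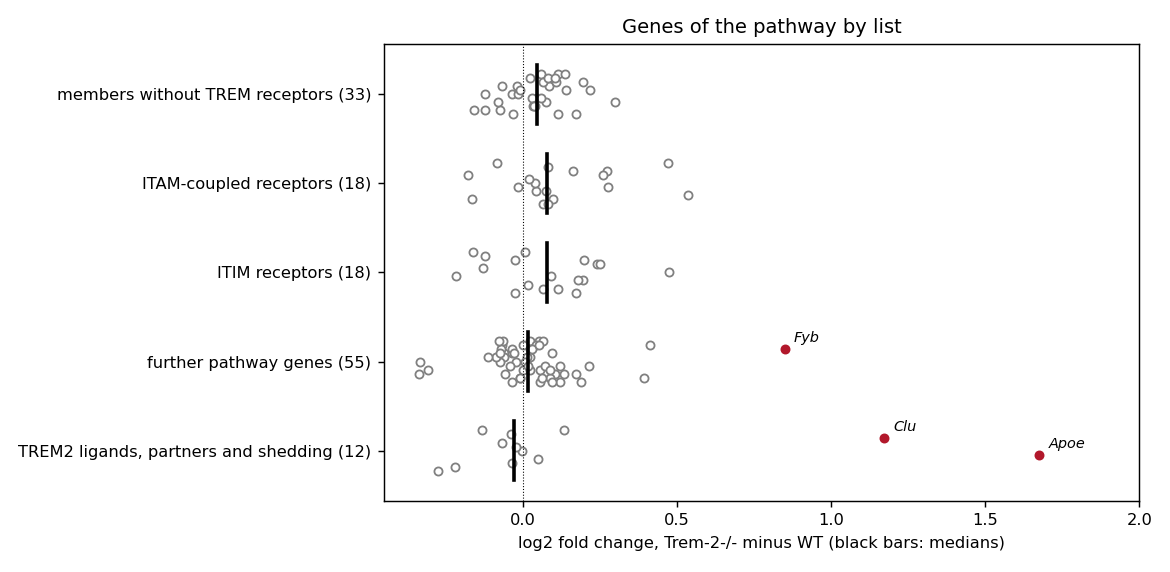
Difference in log2 expression between *Trem-2*-/- and WT AM for the 33 measured genes other than TREM receptors and for 4 lists of further pathway genes, with the number measured in brackets. Each circle is a gene, filled where it passed limma at an adjusted p below 0.05, and black bars are medians, from −0.03 to 0.08. The filled points are *Fyb* (0.85), *Clu* (1.17) and *Apoe* (1.67).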

How the data were processed

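Per the labels and the methods, the authors hybridized RNA to Affymetrix mouse gene 1.0 ST arrays, normalized the 4 arrays together by RMA, which corrects background, equalizes the distributions and summarizes probes, and deposited log2 values per probe set. RMA, with no version given, and the build mm9 are named in the submitters' processing notes. Scanner intensities were not analysed here, so no detection call was at hand, and the number of arrays limits the precision.

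Probe sets with 1 symbol (21797 of 35557) took their names from the annotation of the platform, and for genes with several the probe set with the highest mean was kept. Each gene was fitted by genotype in limma (version 3.58.1, under R 4.3.3) and tested two-sided with eBayes moderation and no replicate term, and the script was tested on simulated data. An exact permutation test of 2 arrays against 2 cannot give a p below 0.333. SAM at a false-discovery rate of 5%, over all 6 assignments of the arrays, was written out as an alternative, beside an intensity trend with robust variance, a replicate block, quantile normalization, median centring, genes with a mean log2 value of 6 or more only, averaged probe sets, all rows, and each array left out.

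The genes and lists were chosen with earlier results of these data known. Genes given by array were the TREM receptors, the adaptors, *Syk*, any gene called under any setting, the largest and smallest difference in each other role, and in the further lists up to 4 called genes or, with none, the 2 largest differences. The promoter motif was chosen after the values were seen. Summed marker levels are log2 of the sum of linear signals.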

Additional observations from a re-analysis of the deposited data

How the results depend on the processing

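*Trem2* stayed lower under all 12 alternatives, and the count of lower genes among the 39 was 1 in each. The count of higher genes among them was 2 with SAM and 2 among genes with a mean log2 value of 6 or more (*Treml2* and *Treml1* in both settings), 3 with an intensity trend and robust variance (*Lcp2* added), and 0 with all rows as probe sets, where more rows enter the adjustment. *Treml2* reaches a mean of 6 only through the *Trem-2*-/- arrays (6.77, against 5.58 in WT AM), so its call there is no support. Over all genes these settings called 171, 207, 379 and 21 as higher and 19, 150, 290 and 2 as lower, against 86 and 27. With each array left out in turn the counts of higher and of lower genes among the 39 were 1 to 1, and over all genes 22 to 43 were higher and 4 to 7 lower. With all rows, *Apoe* (adjusted p = 0.062 from limma), *Clu* (0.24) and *Fyb* (0.26) lost their calls. Of the 468 values of the 39 genes under alternatives, 463 kept their side of the threshold, and no called value changed direction.

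The replicate numbers are not stated to mark a shared batch, and the differences between replicates 1 and 2 correlated at r = −0.05 between genotypes over genes. With the replicate number as a block, 1 gene was higher (*Treml2*) and 1 lower (*Trem2*), the same genes as without it, and no call among the 39 changed.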
